A study of Caenorhabditis elegans with 2 samples.

Results

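Regions precipitated with tagged SOX-4 were examined at 10 Caenorhabditis elegans genes that act in Wnt secretion or carry the Wnt signal inside the cell, out of 19985 annotated protein-coding genes. They are mom-1 and mig-14 for Wnt secretion, the Dishevelled genes mig-5, dsh-1 and dsh-2, the beta-catenin genes wrm-1, bar-1, sys-1 and hmp-2, and pop-1, the TCF gene. The genes were chosen by their place in the pathway, with the pooled signal at mom-1, mig-5 and wrm-1 already known, so that signal is a description here and carries no test. A gene was given each region that overlapped, by at least 1 bp, the window from 3 kb upstream of its 5′ end to its 3′ end. The 10 windows held 23 of the 30000 pooled regions and 4 of the 1497 regions in the authors' optimal list, the set kept after their comparison of replicates.

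The study has 1 group of 2 biological replicates. Each was a ChIP-seq library from whole hermaphrodite L1 larvae of strain OP517 (unc-119(tm4063) III; wgIs517), hatched without food and taken at 6 hours after synchronization. The larvae stably carry SOX-4 fused at its C terminus to GFP and FLAG, and an anti-GFP antibody was used. Both replicates carry the transgene and the unc-119 allele, and what drives the transgene is not given in the sources used here. No library without the tag was analysed here, so signal that needs SOX-4 and signal that does not cannot be told apart. Since whole animals were used, a strong signal in few cells and a weak one in many cannot be told apart either. Read depth is unknown. Signal is the authors' own value for each region, comparable within a list, and rank 1 is the highest signal of a list.

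Wnt proteins are lipid-modified in the endoplasmic reticulum by Porcupine enzymes and carried to the cell surface by Wntless proteins. At the receiving cell, Frizzled receptors act through Dishevelled adaptors on beta-catenins, which join TCF factors at target genes. In C. elegans the beta-catenin roles are shared out among several proteins. BAR-1 works in the canonical pathway, WRM-1 and SYS-1 set the level and activity of POP-1 in asymmetric divisions, and HMP-2 works at cell junctions. Like SOX-4, POP-1 binds DNA through an HMG box. L1 larvae use these pathways in, among others, the migrating Q neuroblasts and the seam cells of the epidermis.

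The sequences below are the summits of the optimal regions at the Wnt secretion gene mom-1, the Dishevelled gene mig-5 and the beta-catenin gene wrm-1, shown because they carry the highest signals among the 10 genes. They were read from the RefSeq copy of WBcel235 (ce11), plus strand. For mig-5 and wrm-1 the whole region is printed. For mom-1 it is 300 of the region's 512 bp, centred on the summit, and its first 57 bases are coding, the end of the exon before the last intron. Capitals mark matches on either strand to short motifs. ACAAT is a core bound by Sox proteins, and so is ACAAAG. The TCF core is CTTTGA, which on the other strand overlaps the longer Sox core. CANNTG is the E-box. The last motif searched, the GAGAGA repeat, has no match in them.
mom-1, chrX:6296437-6296736, summit at base 151: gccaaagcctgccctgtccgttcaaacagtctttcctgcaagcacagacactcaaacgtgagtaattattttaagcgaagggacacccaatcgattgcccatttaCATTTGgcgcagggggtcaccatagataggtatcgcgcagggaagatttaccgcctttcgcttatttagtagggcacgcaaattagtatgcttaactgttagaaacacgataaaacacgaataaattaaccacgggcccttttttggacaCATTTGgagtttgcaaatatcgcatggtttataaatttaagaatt
mig-5, chrII:8185095-8185317, summit at base 125: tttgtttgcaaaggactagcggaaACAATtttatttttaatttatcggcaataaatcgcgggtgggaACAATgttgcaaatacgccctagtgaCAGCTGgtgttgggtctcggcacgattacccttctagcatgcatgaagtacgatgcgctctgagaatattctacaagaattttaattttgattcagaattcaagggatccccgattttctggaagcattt
wrm-1, chrIII:5721969-5722159, summit at base 82: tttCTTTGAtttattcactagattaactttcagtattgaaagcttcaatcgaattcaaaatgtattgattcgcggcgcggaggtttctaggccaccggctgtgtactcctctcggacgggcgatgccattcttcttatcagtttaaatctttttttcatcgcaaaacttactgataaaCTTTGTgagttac

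Positions of matches are given in bp from the summit on the plus strand, negative to its left. The mig-5 sequence held ACAAT at −100 and −57 and an E-box at −31. In the wrm-1 sequence the TCF core was at −78 and the longer Sox core, on the minus strand, at 97. The mom-1 sequence held E-boxes at −45 and 105, while the ACAAT matches of its region, at −277 and 180, lie outside the printed stretch. Within 50 bp of the summit, then, none of the 4 optimal regions held a Sox core, the TCF core or the GAGA repeat, and 3 held an E-box. In the same window ACAAT was found at 23.2% of all 1497 optimal regions and at 29.03% of the 28503 other pooled regions. For the longer Sox core these shares were 4.07% and 5.05%, and for the TCF core 4.74% and 7.37%. The GAGA repeat was at 19.4% of optimal and 6.02% of other regions, and the E-box at 38.7% and 30.05%. A match shows the letters and not a bound site, and 4 regions are too few to compare with these shares.

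The bases within 50 bp of the summits had a GC content of 45.5% at mom-1, 46.5% at mig-5, 50.5% at wrm-1 and 49.5% at hmp-2. All 4 lay between the median of all optimal summits (44.6%) and their 90th percentile (56.4%), and other pooled regions had a median of 31.7%. No stretch of 36 bases in these 4 regions occurred a second time in the genome on either strand. By comparison 151 of the 1497 optimal regions (10.1%) held at least 1 such repeated stretch.

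Optimal regions lay in the windows of mom-1, mig-5, wrm-1 and hmp-2, 4 of the 10 genes. Over all coding genes 10.6% had an optimal region in a window drawn in the same way. The windows of the 10 genes were longer than most, 5701 to 13985 bp against a median of 5026 bp, and among the 6483 coding genes with windows in that range the share was 13.1%. Since 3 of the 4 were known to have strong regions when the genes were chosen, nothing is read from the difference. The other 6 genes, mig-14, dsh-1, dsh-2, bar-1, sys-1 and pop-1, held only regions below the optimal list or none. Any pooled region was present in the windows of 9 of the 10 genes, against 69.2% of all coding genes. The pooled list holds peaks and background, so a region below the optimal list need not be a peak. Per kb, there were 0.269 pooled regions in the windows of the 10 genes and 0.310 in those of all coding genes.

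**Figure D1:**
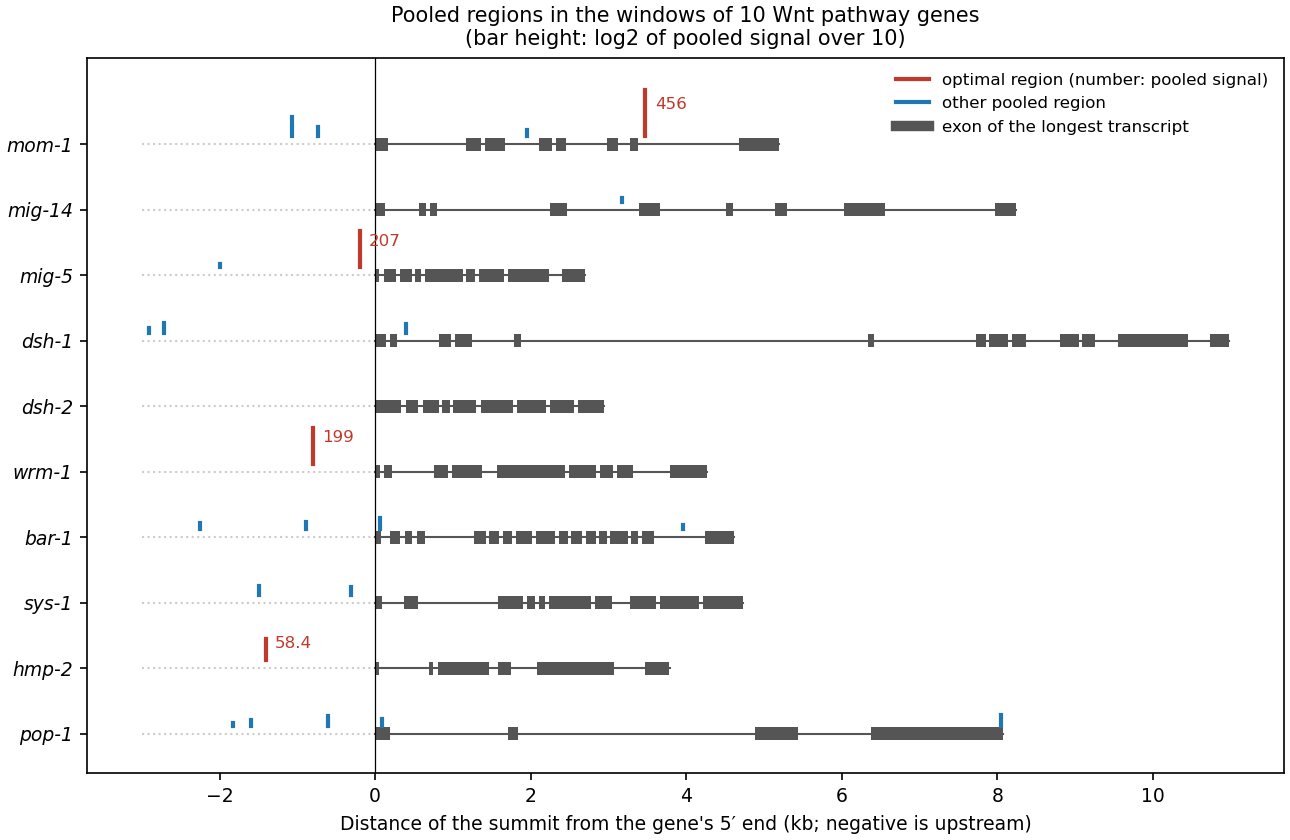
Each row is a gene's window, with the distance from the gene's 5′ end in kb along the x axis, exons as dark boxes and every pooled region as a bar at its summit, its height the log2 of its signal over 10. Optimal regions (red, with their signal) stand in the seventh intron of mom-1, directly upstream of mig-5 and wrm-1 and farther upstream of hmp-2, and the dsh-2 window is empty.

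The Wnt secretion genes mom-1 and mig-14 lay near opposite ends of the pooled list. The gene mom-1 (WBGene00003394; X from 6293112 to 6298305, plus strand) encodes the Porcupine-family acyltransferase that modifies Wnts. Its optimal region, X from 6296297 to 6296808, had a pooled signal of 456.5, rank 9 of 30000. The signal was 222.7 in replicate 1 (rank 14) and 231.3 in replicate 2 (rank 18). The region is thus near the top of the list in both replicates, and 99.96% of coding genes had a lower strongest signal in their window or none. Its −log10 q-value, 2.99, was the highest of the optimal list, a value that 488 optimal regions share, those of mig-5 and wrm-1 among them.

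The summit lay 3475 bp downstream of the mom-1 5′ end, in the last of 7 introns, which is 1299 bp long. The region as a whole also covers the coding exon before that intron. The nearest 5′ end of any gene was that of cest-16, a neighbour downstream on the same strand, at 3355 bp. Of the optimal regions, 260 (17.4%) lay as far from a coding 5′ end or farther, and their median distance was 562 bp. The mom-1 region was also wide, at 512 bp, where 1202 of the 1497 optimal regions were 396 bp and 9 were at least as wide as this one. Replicate 1 listed a further region overlapping it, with its summit 3646 bp from the 5′ end and a signal of 47.0 (rank 579). Replicate 2 listed 1 region there, 300 bp wide, with its summit 3472 bp from the 5′ end.

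The 3 remaining pooled regions of mom-1 were below the optimal list. The strongest, X from 6291845 to 6292240, had a pooled signal of 48.2 (rank 1662), with 33.03 in replicate 1 (rank 1122) and 17.4 in replicate 2 (rank 4572). It falls just outside the optimal list, whose lowest signal was 51.3, and replicate 1 ranked it higher than replicate 2. Its summit was 1069 bp upstream of mom-1, but 306 bp from the tRNA gene T07H6.t2 and 311 bp from the 5′ end of lev-9, a gene for a secreted protein of the neuromuscular junction that runs the other way. A region of signal 21.4 (rank 10395) lay 22 bp from the same tRNA gene's 5′ end, and one of 17.2 (rank 17604) in intron 3 of mom-1, with a counterpart in replicate 2 alone.

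The gene mig-14 (WBGene00003246; II from 13741738 to 13749983) encodes the Wntless protein, which carries Wnts out of the cell. Its window of 11246 bp held 1 pooled region, in intron 4, with a signal of 13.9 (rank 26466). Replicate 1 gave it 8.79 (rank 26032) and replicate 2 listed no region in the window. These values are near the bottom of the lists, whose lowest pooled signal was 12.9.

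The coding genes most like mom-1 were those with an optimal region in an intron and the nearest pooled signal on the log2 scale, among 241 genes whose strongest optimal region was intronic. They were Y56A3A.7 (signal 452.4, rank 11), Y41G9A.17 (462.1, rank 7), sox-4 itself (421.5, rank 15) and hsp-90 (361.5, rank 20). Their log2 differences from mom-1 were −0.01, 0.02, −0.11 and −0.34. In replicate 1 the 4 regions ranked 6, 4, 17 and 27, and in replicate 2 they ranked 23, 19, 17 and 31. Both Y41G9A.17 and sox-4 are on X, as is mom-1. The strain carries sox-4 sequence in its transgene too, and the part of that copy in the sox-4 value was not tested. The measure was taken over 1 pooled list of 2 replicates.

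Among the Dishevelled genes, which encode the adaptors that relay Frizzled signals, only mig-5 had an optimal region. The gene mig-5 (WBGene00003241) lies on II from 8182323 to 8185023, minus strand. Its region, II from 8185095 to 8185317, had a pooled signal of 206.8 (rank 89), with 87.5 in replicate 1 (rank 163) and 121.1 in replicate 2 (rank 66). It is high in each list, and 99.3% of coding genes had a lower strongest signal or none. The summit was 196 bp upstream of mig-5 and 224 bp upstream of cct-1, which encodes a subunit of the cytosolic CCT chaperonin and runs the opposite way. The 5′ ends of mig-5 and cct-1 are 420 bp apart, so the region lies in the upstream sequence of both, and the lists do not tell to which it belongs. Such a placement, with a coding 5′ end within 500 bp on each side and running away from the summit, was found for 186 optimal regions (12.4%).

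The mig-5 region was narrow, 223 bp, and 224 of the optimal regions were as narrow or narrower. The summits of replicates 1 and 2 were 185 and 178 bp from the mig-5 5′ end, both slightly nearer to it than the pooled one. The second pooled region in the window had a signal of 12.9 (rank 29962), inside the body of cct-1, and neither replicate listed a region that overlapped it.

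The gene dsh-1 (WBGene00001101; II from 5214400 to 5225384, minus strand) had 3 pooled regions, 5 regions in replicate 1 and 7 in replicate 2. The strongest pooled one had a signal of 23.5 (rank 8000). Replicate 2 gave 23.1 at rank 2238, where replicate 1 gave 9.11 at rank 24416. These ranks are far apart, but they belong to summits at different positions. The pooled summit, 2709 bp upstream of dsh-1, was 40 bp from the 5′ end of the noncoding RNA gene C34F11.10. A region in intron 2, 393 bp downstream of the 5′ end, had a pooled signal of 20.4 (rank 11720), with 12.9 in replicate 2. Its replicate 1 counterpart, with 11.8, had its summit 129 bp downstream of the 5′ end, in a coding exon. The gene dsh-2 (WBGene00001102; II from 5078233 to 5081174, minus strand) had no region in its 5942 bp window in the pooled list or in either replicate. The lists end at 30000 regions, so this sets only an upper limit, a signal below the lowest listed.

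**Figure D2:**
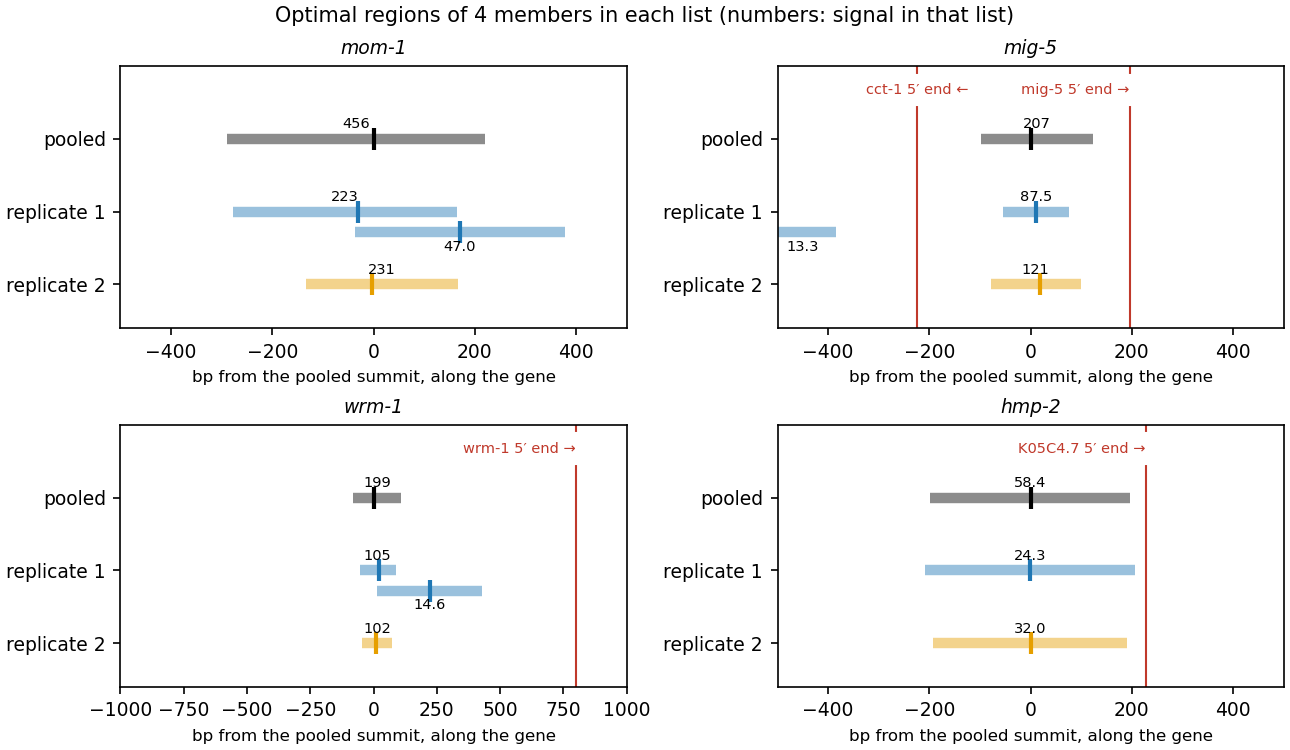
The 4 optimal regions are drawn as they appear in the pooled list and in each replicate, with bp from the pooled summit along the direction of the gene on the x axis, summits as ticks and the signal in each list as a number. The strongest overlapping region of each replicate has its summit within 30 bp of the pooled summit at all 4 genes. Weaker replicate 1 regions at mom-1, mig-5 and wrm-1 have summits farther away. The mig-5 region sits between the 5′ ends of mig-5 and cct-1, and the hmp-2 region lies at the 5′ end of K05C4.7.

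Of the 4 beta-catenin genes, wrm-1 had a strong optimal region and hmp-2 a weaker one. WRM-1 acts with the kinase LIT-1 to lower nuclear POP-1. The gene wrm-1 (WBGene00006943) lies on III from 5722850 to 5727115, plus strand. Its region, III from 5721969 to 5722159, had a pooled signal of 198.5 (rank 100), with 104.8 in replicate 1 (rank 95) and 101.9 in replicate 2 (rank 108). The replicates rank it almost alike, and 99.2% of coding genes had a lower strongest signal or none. The summit was 800 bp upstream of the wrm-1 5′ end. No other gene start of any kind was nearer, which among the 4 optimal regions was also the case at mig-5. At 191 bp it was narrower than most, with 164 optimal regions as narrow or narrower. Replicate 1 listed a further region overlapping it, with a signal of 14.6 (rank 8063), 578 bp upstream of wrm-1.

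HMP-2 is the beta-catenin that links cadherin to the cytoskeleton. The gene hmp-2 (WBGene00001979) lies on chromosome I from 14738882 to 14742671, plus strand, and its region from 14737277 to 14737672. The pooled signal was 58.4 (rank 1199), with 24.3 in replicate 1 (rank 2018) and 32.04 in replicate 2 (rank 1155). It was the weakest of the 4, the nearest to the lower end of the optimal list, and below rank 1497 in replicate 1. The summit was 1407 bp upstream of hmp-2, with the whole of another gene in between. That gene, K05C4.7, is on the same strand, ends 85 bp before hmp-2 begins, and has its own 5′ end 227 bp downstream of the summit. By nearest coding 5′ end the region therefore belongs to K05C4.7, as the mom-1 region does to cest-16.

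The other beta-catenin genes had pooled regions below the optimal list. The gene bar-1 (WBGene00000238; X from 7166005 to 7170625, minus strand), for the canonical beta-catenin, had 4, with pooled signals from 13.99 to 25.1. Its strongest had its summit 59 bp into the gene, in a coding exon, at rank 6682, with 17.5 in replicate 1 (rank 4765) and no counterpart in replicate 2. None of the 4 bar-1 regions had a counterpart in both replicates. The gene sys-1 (WBGene00006379; chromosome I from 9980063 to 9984794, minus strand), for a coactivator of POP-1, had 2, with signals of 20.3 and 20.1 (ranks 11842 and 12190). The latter lay 304 bp upstream, with 14.3 in replicate 1 (rank 8618). Its counterpart in replicate 2, with 14.03 (rank 8393), had its summit 553 bp upstream of sys-1. The region of signal 20.3 lay 57 bp from the 5′ end of the noncoding RNA gene T23D8.10.

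The TCF gene pop-1 (WBGene00004077; chromosome I from 2822243 to 2830311, minus strand) had 5 pooled regions, the most of the 10 genes, with signals from 13.2 to 25.03. The strongest, rank 6739, lay at the far end, in the 3′ UTR and 128 bp from the 5′ end of W03D8.3. It had a signal of 13.9 in replicate 1 (rank 9421) and 10.9 in replicate 2 (rank 16148). At the pop-1 5′ end itself a region of 18.3 (rank 15235) had its summit 91 bp into the gene, with 10.96 in replicate 2 and no counterpart in replicate 1. The other 3 were upstream, between 600 and 1830 bp from the 5′ end. Apart from the one at the 5′ end, the summits were nearer to the start of another gene, coding or noncoding, than to that of pop-1.

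Across the 19 regions below the optimal list, the median pooled signal was 18.3, beside a median of 18.4 over the whole pooled list. Of the 19, 10 were below that value. The mom-1 region of signal 48.2 had a −log10 q-value of 2.29, while the rest had values from 0.07 to 0.41. In the optimal list the lowest was 2.28. By these values the rest cannot be told from the background that the pooled list includes. Of all 23 regions, 13 had a counterpart in both replicates, 5 in replicate 1 alone, 4 in replicate 2 alone and 1 in neither. Neighbouring regions at mom-1, dsh-1 and pop-1 shared counterparts, and a counterpart's summit lay up to 383 bp from the pooled one. The 13 are therefore not 13 separately replicated regions, and no such share over all pooled regions is given here. Replicate 1 listed 26 regions in these windows and replicate 2 listed 23, of which 6 and 8 overlapped no pooled region. Of the 4 optimal regions, those of mom-1, mig-5 and wrm-1 overlapped the 1497 strongest regions of each replicate, as 65.3% of all optimal regions did. The pooled list was made from both replicates, so this is no independent check.

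**Figure D3:**
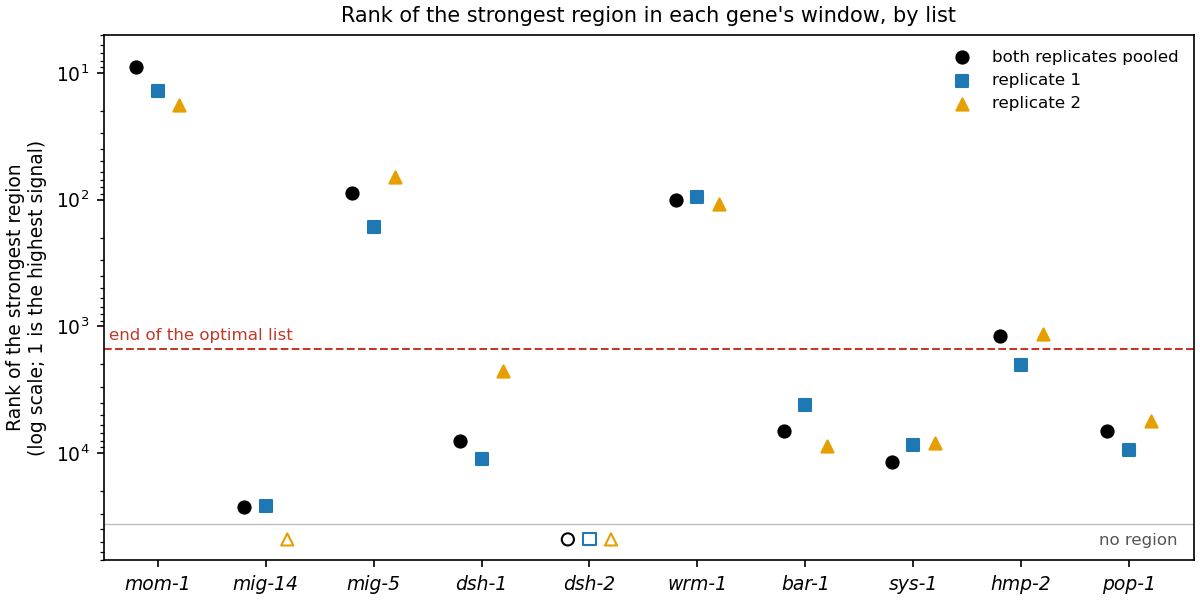
For each gene the rank of the strongest region in its window is plotted on a log scale, with the highest signals at the top, for the pooled list (circles), replicate 1 (squares) and replicate 2 (triangles), and open symbols for no region. The genes mom-1, mig-5 and wrm-1 stay at rank 163 or higher in all 3 lists, hmp-2 straddles the end of the optimal list at rank 1497, and the other genes are below it.

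Other genes of the pathway were taken from 6 lists of 39 genes, none of them among the 10. An optimal region lay in the window of 4 of the 39 (10.3%), near the 10.6% of all coding genes, and a pooled region in that of 36, where 69.2% of all coding genes had one. Some of these windows are very long, up to 61913 bp at the cadherin gene hmr-1, and no share over genes with windows of like length was computed for them. None of the 5 Wnt ligand genes and none of the 3 cadherin and catenin partner genes had an optimal region. Each of the remaining lists had 1 gene with such a region.

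The strongest of these was at dpy-23, which encodes the AP2 clathrin adaptor subunit that returns MIG-14 to the cell. It had a pooled signal of 112.3 (rank 386), with 47.6 in replicate 1 (rank 562) and 60.3 in replicate 2 (rank 362), and its summit was 375 bp upstream of dpy-23 and 330 bp from the start of the noncoding RNA gene R160.8. Thus mom-1 had an optimal region and mig-14 did not, and dpy-23 was the only 1 with such a region in the list of 8 genes for Wnt secretion and MIG-14 traffic. A pooled region was present at 7 of the 8 listed genes, the exception being the retromer gene vps-35, and at 69.2% of all coding genes. With so few genes nothing is read from these counts. At the Frizzled gene lin-17 an optimal region lay in an intron, 3743 bp from the 5′ end, with a signal of 78.7 (rank 694), and of 38.7 in each replicate (ranks 847 and 814). At lit-1, the partner kinase of WRM-1, it lay in an intron of a gene with a 25414 bp window, 14429 bp from the 5′ end, with a signal of 68.7 (rank 910), and of 34.9 and 35.01 in the replicates (ranks 999 and 973). The nearest start of any gene to that summit was the piRNA gene 21ur-14211, at 4352 bp. The regions at dpy-23, lin-17 and lit-1, and that at end-3 described below, ranked within the first 1497 of each list.

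At end-3, a GATA factor gene of the endoderm and a known POP-1 target, the region had a signal of 69.8 (rank 879), with 31.6 in replicate 1 (rank 1231) and 40.5 in replicate 2 (rank 739). Relative to the end-3 5′ end its summit was at −2352 bp, but it was 10 bp from the 5′ end of aip-1. The signals at dpy-23, lin-17, lit-1 and end-3 were all below those at mom-1, mig-5 and wrm-1, and above that at hmp-2.

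When the summit had to lie inside the window with no other coding 5′ end nearer, 2 of the 10 genes, mig-5 and wrm-1, had an optimal region. By the same rule 5.63% of all coding genes did. With a reach of 5 kb upstream sys-1 joined the 4 genes, through a region of signal 60.8 (rank 1129) with its summit at −4227 bp from the sys-1 5′ end and 111 bp upstream of the histone gene his-68.

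**Figure D4:**
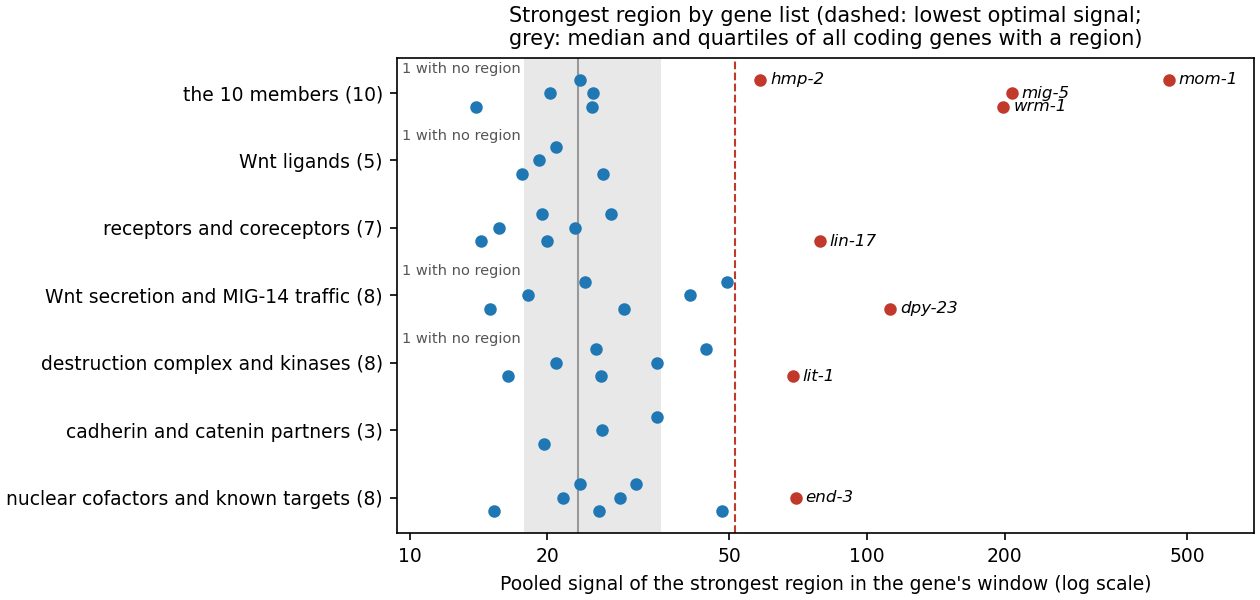
The pooled signal of the strongest region in each gene's window is shown on a log scale for the 10 genes and the 6 other pathway lists, with the number of genes in parentheses, red points for optimal regions and the dashed line at the lowest optimal signal, 51.3. The grey band holds the middle quartiles of all coding genes with a region, 17.9 to 35.2 around a median of 23.3, and mom-1, mig-5 and wrm-1 lie farthest to the right.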

How the data were processed

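Chromatin was fragmented by sonication, per the labels. The authors deposited region lists, with peaks and background, made from replicate 1, from replicate 2 and from both alignments, and an optimal list thresholded by irreproducible discovery rate. The sources used here name no caller and no threshold. The deposited signal and −log10 q-value of each region were used as given, to describe and rank regions within a list. Depth is unknown.

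The ce11 lists were used. The ce10 lists were not, since genes came from Ensembl release 115 for WBcel235 (44798 genes without pseudogenes) and builds were not mixed. RefSeq supplied sequence and, by WormBase identifier, symbols for 46881 of 46926 genes. A gene's 5′ end is the outermost annotated one. A region's counterpart in a replicate is the strongest region overlapping it by at least 1 bp, so neighbouring regions can share one. Motifs were sought within 50 bp of the summit on both strands.

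The genes, the pathway lists and the rules for naming genes were chosen with earlier results of these data known, and no test was made. The rules name all 10 genes, each listed gene with an optimal region, the gene start nearest to each optimal summit of the 10 genes and the 4 genes most like the one of highest signal. Genes named after their values were seen are W03D8.3, T07H6.t2, cct-1, aip-1, hmr-1, R160.8, 21ur-14211, lev-9, C34F11.10, T23D8.10, vps-35 and his-68. Widths, divergent starts, repeated stretches and GC content were added then too. Assignment of regions to windows was tested on simulated data. Computations used Python 3.11.15, numpy 2.4.6, pandas 2.3.3, scipy 1.17.1 and matplotlib 3.10.9.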

Additional observations from a re-analysis of the deposited data

How the results depend on the processing

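The 4 genes with an optimal region became 3 with a reach of 1 kb or with the stronger part of the optimal list (without hmp-2), 5 with 5 kb, 2 when the summit had to lie nearer to the gene's 5′ end than to any other coding one (mig-5 and wrm-1), and 1, mom-1, in the gene body alone. Using 1 replicate's 1497 strongest regions gave 3 to 4, hmp-2 being the gene that left without replicate 2. The replicate 2 list includes 13 mitochondrial regions. Among the 39 other pathway genes the 4 became 2 in the gene body alone (lin-17 and lit-1) and 2 with the stronger part of the list (dpy-23 and lin-17), and 3 to 5 elsewhere.

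The share of all coding genes moved with the same choices, from 10.6% to 7.77% with 1 kb, 12.9% with 5 kb, 3.95% in the gene body, 9.998% with summits, 5.63% by the nearest coding 5′ end and 5.99% with the stronger part of the list. It was 13.1% among genes with windows as long as those of the 10 genes and 15.3% among genes with a pooled region, and 10.2% to 10.5% from 1 replicate. A reach of 1 kb left 15 of the 23 pooled regions and 1 of the 2 optimal regions that were nearer to another gene's start. In windows of 100 bp on each side of the summit, ACAAT and CTTTGA were each found at 1 of the 4 optimal regions in place of 0. In those windows ACAAT was at 40.9% of all optimal and 49.8% of other pooled regions, and CTTTGA at 10.4% and 14.6%. Over whole regions ACAAT was at 2 of the 4, and ACAAAG and CTTTGA at 1 each. The whole-region shares of all optimal and other pooled regions were 61.3% and 74.4% for ACAAT. They were 16.97% and 20.04% for ACAAAG, and 18.97% and 26.95% for CTTTGA. The counts of these motifs moved with the length searched. The E-box stayed at 3 of the 4 regions and the GAGA repeat at 0 at each length. Over whole regions the shares of all optimal and other pooled regions were 74.1% and 74.9% for the E-box, and 39.4% and 20.5% for the GAGA repeat. The cause of the moves in the gene and region counts was not tested. All lists end at 30000 regions, so signal at dsh-2 below the lowest listed could not be seen, and depth is unknown. No paired analysis was possible because there is 1 group.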
